A study of Mus musculus with 2 samples.

Results

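2-sided anchors are sites in the genome from which called chromatin loops ran both toward lower and toward higher coordinates. They were found by merging the anchors of the loop list on chromosomes 1 to 19 wherever anchors shared at least 1 bp. A merged anchor was kept when it held at least 1 upstream and at least 1 downstream anchor of a loop. Of 8507 merged anchors, 126 met this rule (1.48%, Wilson 95% interval 1.25 to 1.76%). Another 919 merged anchors had 2 or more loops that all ran to 1 side, and 7462 had 1 loop. The anchors were thus chosen by the measured positions of the loops, and every count of sides, loops, spans and scores below describes the chosen anchors and tests nothing.

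The contacts were measured by Micro-C, in which fixed chromatin is cut with micrococcal nuclease before neighbouring ends are joined and sequenced. The cells were V6.5, a line of male mouse embryonic stem cells, described as wild type in the labels. Both samples (replicates 1 and 2) form the group siControl, received the siGLO transfection control reagent at 50 nM and were collected 48 h later. The data are 1 list of 4982 loops in mm10 for both samples, of which 4858 lie on chromosomes 1 to 19, with no expression values against which the cell type could be checked. Values per replicate are missing from the list and the read depth is unknown, so intervals here cover counting error over the anchors of this list only, and no spread between replicates could be measured.

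As background, loops form when cohesin, a ring complex, extrudes chromatin until it meets CTCF, a DNA-binding protein that stops it depending on the orientation of its site. A border of neighbouring domains often carries CTCF sites in both orientations, so that loops leave it to both sides and few contacts pass over it. Many developmental regulator genes lie in wide, gene-poor domains that also hold their enhancers, and the borders of such domains limit which genes an enhancer can reach.

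The anchors were set against their label as borders of 2 neighbouring domains, and called loops passed over most of them. Of the 126 anchors, 90 (71.4%, 63.0 to 78.6%) were crossed by at least 1 other called loop, whose anchors lay on the 2 sides of the site. The other 36 had no crossing loop in the list. A crossing loop does not by itself show that a site is no border. At 23 anchors, for example, a crossing loop enclosed the flanking loops of both sides. Whether the sites are borders was not tested, so they are called 2-sided anchors here.

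The promoter sequences of 2-sided anchors are shown first, for the genes on which the account turns and for the only promoters there that hold the core of the CTCF motif. Each is the 250 bases before a start site, written 5′ to 3′ on the strand of the gene, from RefSeq GRCm38.p6, the assembly that mm10 names. Dlx1 (chr2:71529195-71529444, plus strand) and Dlx2 (chr2:71546755-71547004, minus strand) share 1 anchor. Pax9 (chr12:56695221-56695470, plus strand), Runx1 (chr16:92697330-92697579, minus strand) and the histone gene H2ac12 (chr13:22035644-22035893, minus strand) each lie at another. Capitals mark CG dinucleotides, the sites of DNA methylation.
Dlx1: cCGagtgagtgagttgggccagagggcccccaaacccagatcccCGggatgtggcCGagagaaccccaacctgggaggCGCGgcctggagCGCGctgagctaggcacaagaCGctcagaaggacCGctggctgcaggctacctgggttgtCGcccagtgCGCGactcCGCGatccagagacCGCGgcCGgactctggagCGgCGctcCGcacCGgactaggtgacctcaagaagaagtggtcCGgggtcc
Dlx2: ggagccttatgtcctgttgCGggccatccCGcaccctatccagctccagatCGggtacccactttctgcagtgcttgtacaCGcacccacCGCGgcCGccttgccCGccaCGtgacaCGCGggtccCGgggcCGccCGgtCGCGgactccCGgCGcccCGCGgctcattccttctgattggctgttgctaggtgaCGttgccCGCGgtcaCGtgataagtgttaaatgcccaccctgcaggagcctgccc
Pax9: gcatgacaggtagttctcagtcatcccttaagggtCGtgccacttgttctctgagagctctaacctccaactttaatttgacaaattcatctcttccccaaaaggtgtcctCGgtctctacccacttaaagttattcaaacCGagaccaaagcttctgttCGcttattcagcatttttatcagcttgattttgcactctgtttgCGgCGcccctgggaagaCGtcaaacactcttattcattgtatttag
Runx1: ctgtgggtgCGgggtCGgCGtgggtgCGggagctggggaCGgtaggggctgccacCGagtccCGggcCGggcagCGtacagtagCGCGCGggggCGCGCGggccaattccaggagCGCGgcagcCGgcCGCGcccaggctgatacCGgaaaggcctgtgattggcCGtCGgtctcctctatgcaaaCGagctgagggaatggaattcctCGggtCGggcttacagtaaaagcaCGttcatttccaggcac
H2ac12: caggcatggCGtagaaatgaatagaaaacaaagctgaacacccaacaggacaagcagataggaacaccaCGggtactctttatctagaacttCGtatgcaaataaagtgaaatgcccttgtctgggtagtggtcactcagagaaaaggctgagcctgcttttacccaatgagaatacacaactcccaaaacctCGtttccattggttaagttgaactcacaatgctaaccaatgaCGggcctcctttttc

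The stretches before Dlx1, Dlx2 and Runx1 were rich in CG, with 22, 24 and 27 CG dinucleotides. Those before Pax9 and H2ac12 held 7 and 5. The Pax9 start site used here (56695471) lies inside the gene record, which begins at 56691693 in the same anchor. The stretch before the beginning of that record is not shown. The median over all 31396 promoter entries, noncoding genes included, was 6 (quartiles 2 and 16).

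The core of the CTCF motif was searched as CCA, any 2 bases, AG, any 2 bases and GGC, on both strands with no mismatch, over 250 bases before to 50 after each start site; no other motif was searched. It was found in 2 of 51 promoter entries at 2-sided anchors (3.92%, 1.08 to 13.2%), 8 of 297 at anchors with several loops to 1 side (2.69%) and 55 of 1391 at anchors with 1 loop (3.95%). Of all 31396 promoters, 776 (2.47%) held it. The interval at 2-sided anchors covers the share of all promoters. Both matches are shown with the match in capitals. They lie before Mpp6 (chr6:50109991-50110240, plus strand), which encodes a membrane-associated scaffold protein, and Gm33299 (chr14:121456892-121457141, minus strand), a long noncoding RNA gene. The core letters run along the minus strand of the genome at Mpp6 and along its plus strand at Gm33299, so the letters shown are their reverse complement.
Mpp6: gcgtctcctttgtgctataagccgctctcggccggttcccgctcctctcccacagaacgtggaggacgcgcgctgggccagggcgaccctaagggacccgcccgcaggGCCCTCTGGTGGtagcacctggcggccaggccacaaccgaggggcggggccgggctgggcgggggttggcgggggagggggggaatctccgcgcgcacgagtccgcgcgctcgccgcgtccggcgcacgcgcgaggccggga
Gm33299: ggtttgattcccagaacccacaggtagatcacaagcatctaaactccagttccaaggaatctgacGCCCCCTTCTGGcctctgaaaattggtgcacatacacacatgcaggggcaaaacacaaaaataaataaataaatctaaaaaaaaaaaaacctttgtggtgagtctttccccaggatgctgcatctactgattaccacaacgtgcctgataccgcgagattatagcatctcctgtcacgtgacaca

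A match of letters is a description and not a binding site, and the rest of the anchor sequence was not searched here. No microRNA gene lay in a 2-sided anchor (0 of 126, which allows a share of up to 2.38%, taken as 3 counts of the total).

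Most 2-sided anchors were simple: 101 of 126 (80.2%) had 1 loop to each side, and 25 had 3 or more loops. In all, 274 loops touched them, 9 of them at both anchors. The merged intervals were narrow, with 66 of 10 kb, 45 of 25 kb, 10 of 30 kb, 3 of 5 kb and 2 of 50 kb. Several loops at 1 anchor ran to the same side far more often than to both. Among 911 merged anchors with exactly 2 loops, 414 (45.4%) had both toward lower coordinates, 396 (43.5%) both toward higher coordinates and 101 (11.1%, 9.21 to 13.3%) had 1 each way.

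In 54 of the 126 (42.9%) a loop of each side was anchored on the identical interval. In the other 72 the intervals came from contact maps of different pixel size and overlapped in part or lay one within the other. Among these 72, the loop toward lower coordinates ended at a lower midpoint than the loop toward higher coordinates began in 47 (65.3%, 53.8 to 75.2%), at a higher midpoint in 22 (30.6%) and at the same one in 3. The distance was small, with a median of 2.5 kb and a maximum of 12.5 kb. The best overlap of a left and a right interval was 5 kb in 50 anchors, 10 kb in 67 and 25 kb in 9.

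Just outside the rule lay neighbouring anchors that shared no base. Within 50 kb of each other there were 915 neighbouring pairs whose loops left on the 2 outer sides, against 53 whose loops ran toward and past each other. Of the outward pairs, 132 abutted with no gap and another 69 lay up to 5 kb apart. Against 126 shared anchors, abutting outward pairs were about as many, and outward pairs outnumbered them only as wider gaps were included. Whether such a pair is 1 site was not tested. Neighbours with loops to the same side were the most frequent, with 1411 pairs within 50 kb and 601 with no gap.

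**Figure D1:**
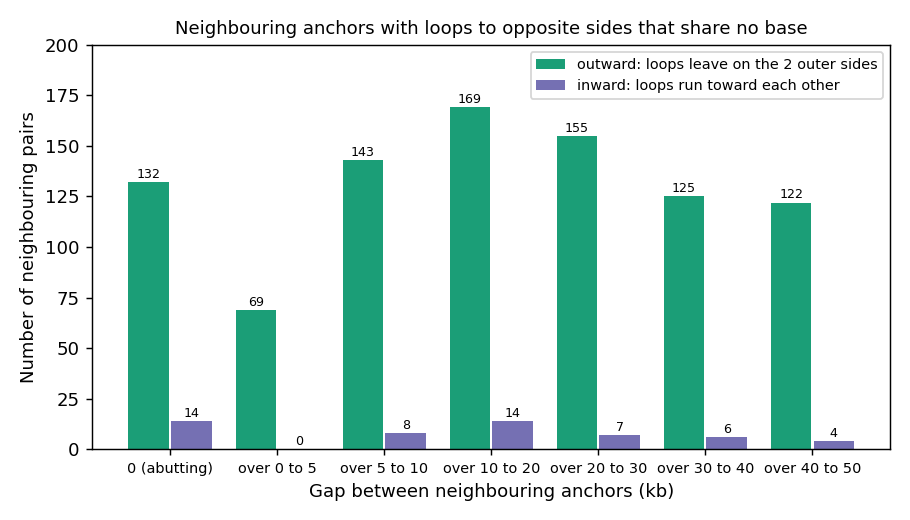
Number of neighbouring pairs of anchors that share no base (y axis) by the gap between them in kb (x axis), for pairs whose loops leave on the outer sides (green) and pairs whose loops run toward each other (purple). Outward pairs number 132 at a gap of 0 and 122 at 40 to 50 kb, and inward pairs never exceed 14. Pairs with loops to the same side are not drawn.

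Crossing was more frequent at 2-sided anchors than at other anchors. Against the 71.4% of 2-sided anchors, 298 of 919 anchors with several loops to 1 side (32.4%, 29.5 to 35.5%) and 3571 of 7462 anchors with 1 loop (47.9%, 46.7 to 49.0%) were crossed. Among anchors 10 kb wide, the commonest width, the shares were 71.2% (59.4 to 80.7%), 34.5% and 48.1%. When the crossing loop had to lie at least 25 kb clear of the site on each side, they were 69.8% (61.3 to 77.2%), 22.3% and 38.4%. The share at 2-sided anchors was the highest of the 3 classes in each case. The classes and the crossings come from the same loop positions, and a loop can cross several anchors. The shares and intervals are therefore a description and not a test. Outward pairs of close anchors were crossed less often, 67 of 132 (50.8%, 42.3 to 59.1%) where they abutted and 347 of 915 (37.9%) up to 50 kb apart. A loop had to clear both anchors of a pair and the gap between them, so the shares are not on an equal footing with those of single anchors.

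The crossing loops took several forms. There were 171 crossings by 157 distinct loops, and these loops spanned 670 kb in the median (590 to 750 kb). At 52 anchors a crossing loop started or ended inside a flanking loop. At 43 it joined the far anchor of a flanking loop on 1 side to another site, and at 23 it enclosed the flanking loops of both sides. At 10 anchors (7.94%, 4.37 to 14.0%) it joined a far anchor of one side directly to a far anchor of the other, so that 3 sites were linked pairwise. The site with most crossing loops (6) was chr2:58970001-58980000, inside Ccdc148, a coiled-coil protein gene.

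**Figure D2:**
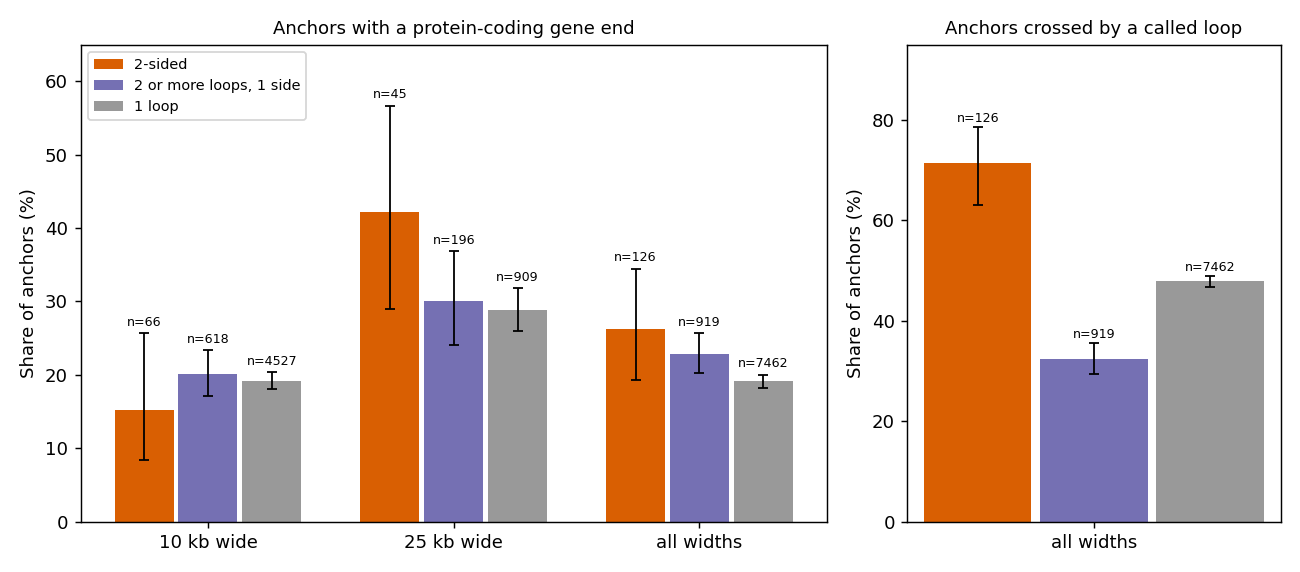
Share of merged anchors in percent (y axis) with a protein-coding gene end, by width (left panel), and crossed by a called loop (right panel), for 2-sided anchors (orange), anchors with 2 or more loops to 1 side (purple) and anchors with 1 loop (grey). Bars start at 0, error bars are Wilson 95% intervals and n is the number of anchors: 71.4% of 2-sided anchors are crossed, against 32.4% and 47.9%.

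The loops on the 2 sides of an anchor were usually of unequal length. Taking the longest loop of each side, the span (distance between the anchor midpoints) had a median of 375 kb toward lower coordinates (320 to 425 kb) and 375 kb toward higher coordinates (285 to 430 kb). The shorter side had a median of 215 kb (range 35 to 1875 kb) and the longer side 600 kb (range 175 to 5800 kb). In 82 of 126 (65.1%, 56.4 to 72.8%) the longer side was at least 2 times the shorter, and in 32 (25.4%) at least 5 times. Neither direction was preferred, with the side toward lower coordinates longer in 69 and the other in 57. Across the 126 anchors the spans of the 2 sides had a Spearman rho of -0.26 and the scores 0.19; each pair of values shares an anchor, and both are given as a description.

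**Figure D3:**
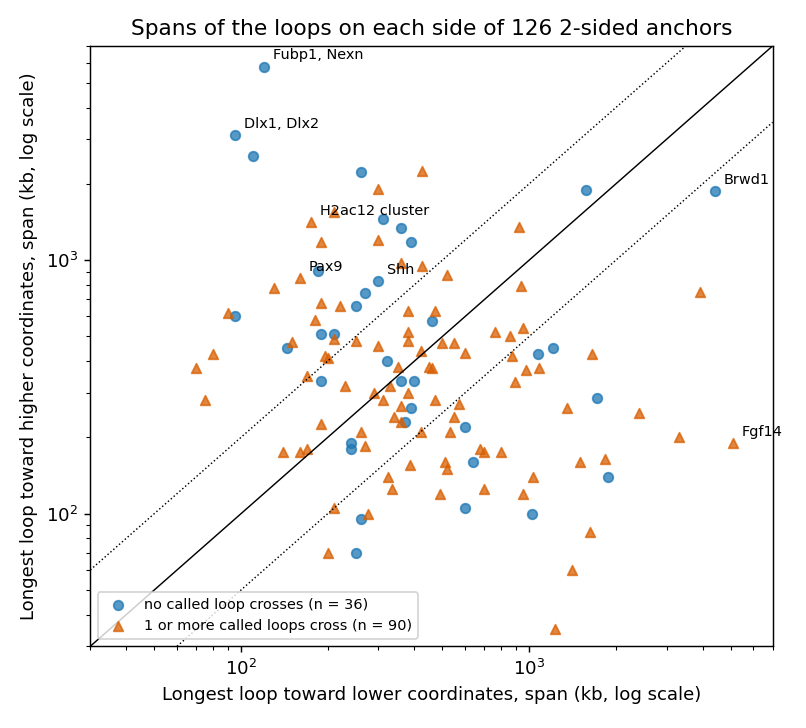
Span of the longest loop toward higher coordinates (y axis, kb, log scale) against that toward lower coordinates (x axis, kb, log scale) at each of the 126 2-sided anchors, with crossed anchors as orange triangles (90) and the others as blue circles (36). The solid line marks equal spans and the dotted lines a ratio of 2, outside or on which 82 anchors lie.

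Over all pixel sizes together, the loops of 2-sided anchors resembled the other loops in the deposited peak score, the loop caller's measure of how a contact stands out. The median score was 4.24 (4.09 to 4.36) for the 274 loops and 4.15 (4.11 to 4.19) for the 4584 others, and the intervals overlap. For loops called on 25 kb pixels it was 4.35 (3.93 to 4.60) against 3.81 (3.74 to 3.90), where they do not. The 2 sets differed in pixel size, with 68 of the 274 loops from 25 kb pixels against 568 of the 4584 others. What pixel size contributes was not tested. The median span was 365 kb (320 to 400 kb) for the 274 loops and 320 kb (310 to 330 kb) for the others. The weaker side of an anchor had a median of 3.86 over the 126 anchors, and the longer side had the higher score in 74.

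Genes were counted as being at an anchor when the start or the end of a protein-coding record lay inside it. For the longest loop of a side, only genes whose whole record lay between its 2 anchors were counted. The gene table has no exons, so exon and intron positions are not given. A gene end lay at 33 of the 126 anchors (26.2%, 19.3 to 34.5%), against 22.9% (20.3 to 25.7%) of anchors with several loops to 1 side and 19.1% (18.26 to 20.05%) of those with 1 loop. The order changed with width. At 10 kb, 10 of 66 2-sided anchors (15.2%, 8.44 to 25.7%) held a gene end, against 20.1% and 19.2%, while at 25 kb 19 of 45 (42.2%, 29.0 to 56.7%) did, against 30.1% (24.1 to 36.9%) and 28.8% (25.97 to 31.85%). At 10 kb the interval of 2-sided anchors covers both other shares. At 25 kb it covers that of several loops to 1 side and lies just above the share with 1 loop.

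Another 34 anchors (27.0%) lay wholly inside a gene with neither end in them, and 59 (46.8%) held no part of a protein-coding record. The genes around an anchor were long, with a median of 211 kb (range 36.3 to 914.5 kb) against 17.5 kb for all 20665 protein-coding records. A long gene covers more of the genome, and what this length contributes was not tested. The genes around the other classes of anchors were not compared for length. Examples are Runx1 and Runx2, transcription factors of blood and bone, Fgf14, a regulator of neuronal sodium channels, Zbtb20, a transcriptional repressor, Ryr3, a calcium release channel, Col5a1, a fibrillar collagen, and Alk, a receptor tyrosine kinase. An end of a noncoding record lay at 38 anchors, a lncRNA in 28 of them, a pseudogene in 9 and a tRNA gene in 3.

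The genes at 2-sided anchors included several that pattern the embryo. Of 207 developmental transcription factor genes matched, 5 (2.42%) had an end at one, among them Dlx1, Dlx2, Osr1 and Pax9. Another 2 surrounded one (Runx1 and Runx2) and 15 (7.25%) lay inside a flanking loop, Runx1 again among them. Of 53 signalling ligand genes, Shh had an end there, and Bmp2 and Ihh lay in a flanking loop. Over all 20665 protein-coding genes, 47 (0.227%) had an end at a 2-sided anchor and 775 (3.75%) lay in a flanking loop. No end of 37 pluripotency genes, 24 cohesin and CTCF genes, 32 housekeeping genes, 40 imprinted genes, 57 clustered protocadherin genes or 1104 olfactory receptor genes lay at one. Among the pluripotency genes, Sox2 was the only one at the outermost far anchor of a flanking loop, and none lay inside one.

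The anchor at Dlx1 and Dlx2 (chr2:71525001-71550000) held both promoters shown above. These homeobox genes act in forebrain interneurons and the jaw. A loop of 95 kb with a peak score of 5.79 ran toward lower coordinates to the other end of Metap1d, a mitochondrial aminopeptidase gene that ends in the anchor. A loop of 3125 kb with a score of 9.63 ran the other way to Evx2 and Hoxd13, at the edge of the Hoxd cluster, which patterns the limb. Between its ends lay 17 whole protein-coding genes. No whole gene lay between the far interval of the short loop and the merged anchor, but Metap1d ran from one to the other. The short loop's own interval in the anchor (chr2:71545001-71550000) lay beyond Metap1d and Dlx1 and overlapped Dlx2. No called loop crossed the site.

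Shh, which encodes a secreted patterning signal, lay wholly inside the anchor chr5:28450001-28475000. Toward lower coordinates a loop of 300 kb with a score of 5.73 reached En2, a homeobox gene of the midbrain and hindbrain. Toward higher coordinates a loop of 825 kb with a score of 5.59 reached an interval (chr5:29275001-29300000) inside Lmbr1, the gene known to hold the limb enhancer of Shh. The scores of the 2 sides were nearly equal, few genes lay within (Cnpy1 and Rbm33 on one side, Rnf32 on the other) and no called loop crossed.

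The 2-sided anchor with the longest shorter side lay at Brwd1, a bromodomain gene with an end in chr16:96075001-96100000. Its loops spanned 4400 kb (score 4.10), to Son, Donson and Cryzl1, and 1875 kb (score 5.00), to Zbtb21, a zinc finger gene. They held 32 and 15 genes, among them Runx1 toward lower coordinates, and no called loop crossed the site.

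The anchor at the start of Pax9 (chr12:56690001-56700000) was linked on both sides to other developmental genes and was also bridged. Pax9 acts in the teeth and pharyngeal pouches. A loop of 160 kb with a score of 5.67 led to Nkx2-1, a regulator of lung and thyroid, across Nkx2-9. Toward higher coordinates 2 loops left the site, one of 290 kb with a score of 3.58 and one of 850 kb with a score of 8.57 that reached Foxa1, a pioneer factor of endoderm, and Ttc6. A further loop of 1010 kb with a score of 5.04 joined the Nkx2-1 interval to the Foxa1 interval over the top of Pax9. The 3 other crossing loops spanned 505, 660 and 3225 kb, and the first of them began 5 kb before the anchor.

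The anchors at Osr1 and Runx1 had weaker flanking loops and were crossed. Osr1, a zinc finger gene of early kidney and heart, had an end in chr12:9550001-9580000, with loops of 520 kb (score 4.24) and 875 kb (score 3.20) and 5 crossing loops. Among the crossing loops, that of 160 kb scored 8.03, above both flanking loops. It ended in an interval that abuts the anchor and holds the other end of Osr1. Runx1 surrounded chr16:92675001-92700000, which held one of its start sites (the sequence above), with loops of 130 kb (score 3.17) and 775 kb (score 3.08) and 2 crossing loops. The anchors at Dlx1 and Dlx2 and at Shh had no crossing loop, and the 4 at Pax9, Osr1, Runx1 and the histone genes had 2 to 5.

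**Figure D4:**
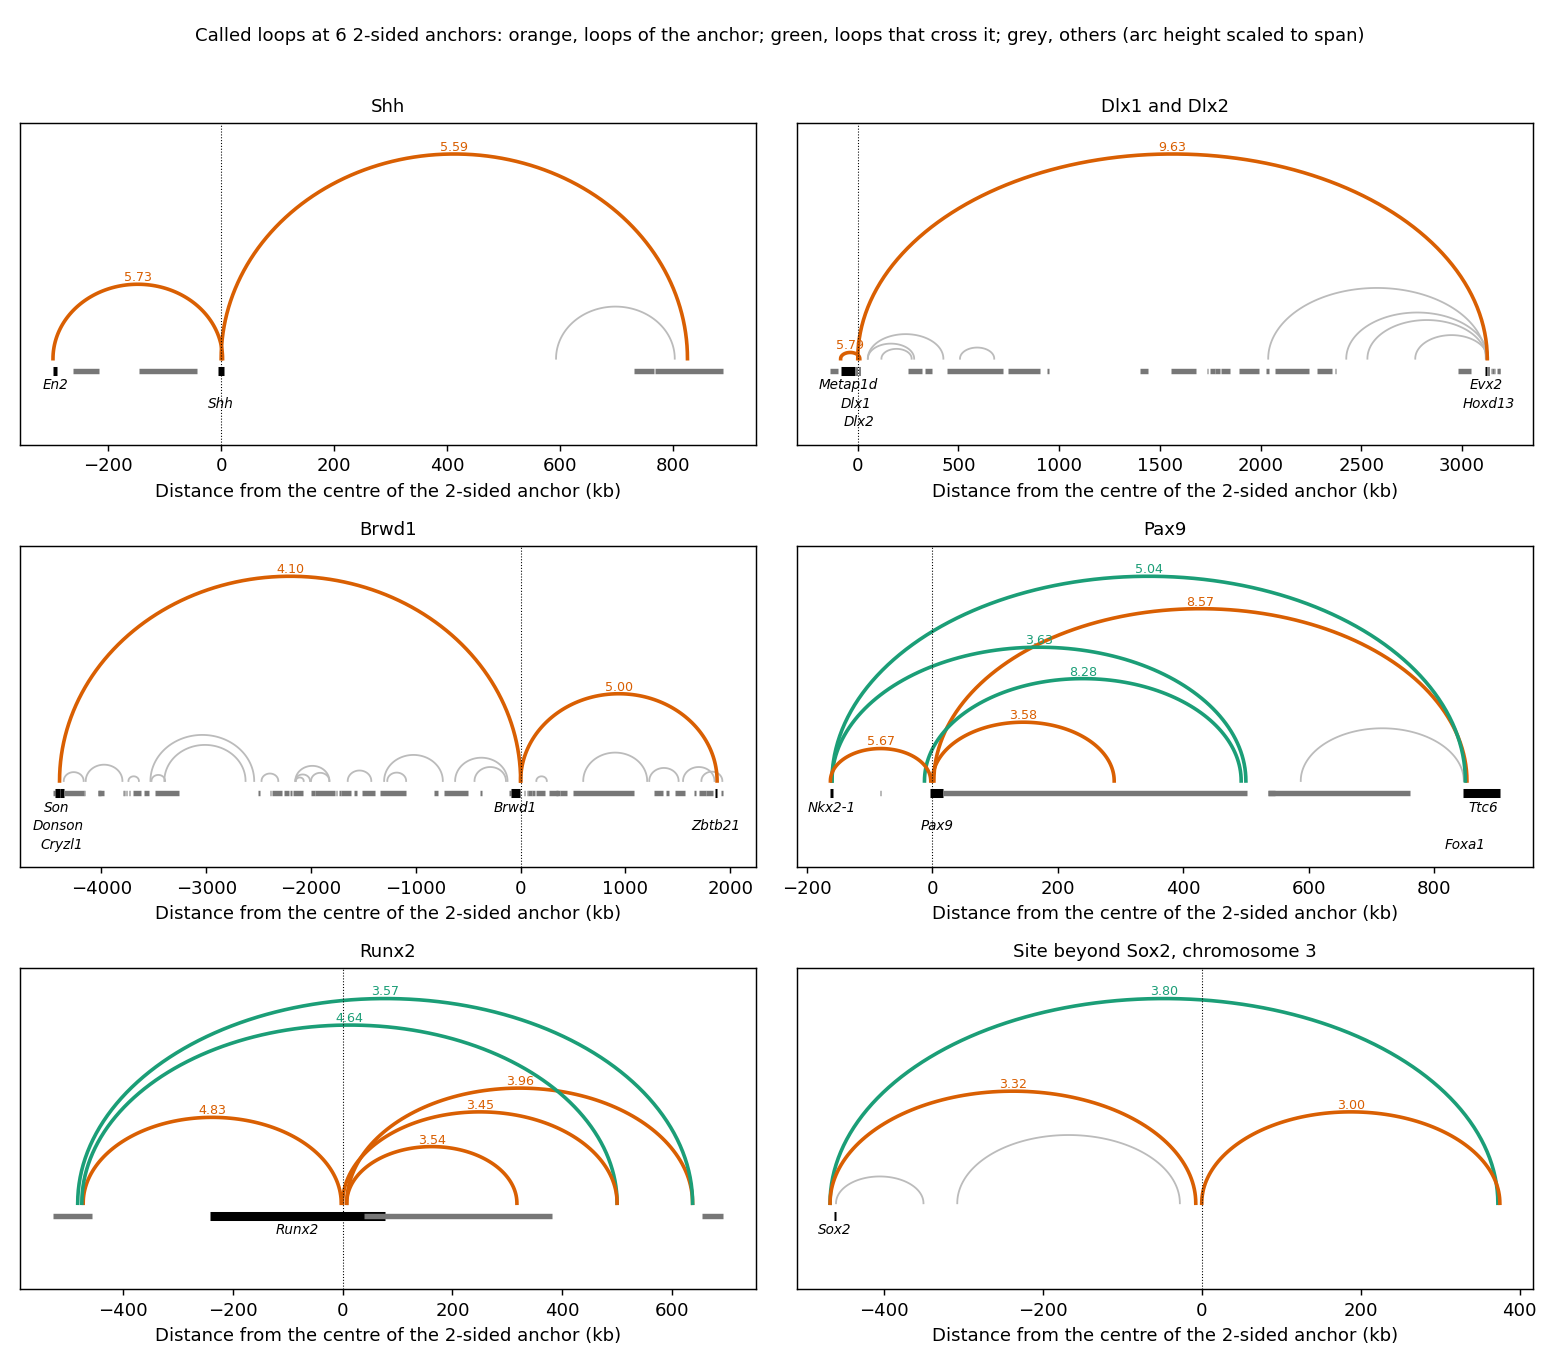
Called loops as arcs at 6 2-sided anchors, with distance from the anchor's centre in kb on each x axis and arc height scaled to the span within a panel; genes are bars, black where named. Orange arcs are the anchor's own loops and green ones cross it, each with its peak score, and grey arcs are other loops in the window (loops that leave the window are not drawn): no drawn loop crosses at Shh, Dlx1 and Dlx2, or Brwd1, and green arcs bridge Pax9, Runx2 and the site beyond Sox2.

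The bridged anchors at Runx2, beyond Sox2 and at Sim2 had weaker flanking loops than Pax9, and the site beyond Sox2 was chosen after its values were seen. Runx2 surrounded chr17:44725001-44750000, from which 1 loop of 470 kb (score 4.83) ran toward lower and 3 loops toward higher coordinates, the longest of 630 kb with a score of 3.96. The bridging loops of 975 and 1120 kb had scores of 4.64 and 3.57. No gene lay wholly in the loop toward lower coordinates, but parts of Runx2 and Clic5 did. Sox2, a core pluripotency factor of these cells, lay at the far end of a loop of 460 kb (score 3.32) to chr3:35100001-35125000, a site without any gene record. From there a loop of 375 kb (score 3.004) went on, and the bridge between its far interval and the Sox2 interval, 840 kb, had a score of 3.80. Sim2, a bHLH-PAS transcription factor gene, had an end in chr16:94075001-94100000, one of the 3 anchors with the shortest longer side (140 and 175 kb, scores 3.41 and 2.80, bridge 325 kb with 3.31). In these 3 cases the bridge scored above at least 1 of the loops it spanned.

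The rest of the bridged anchors lay in Gpa33, Col5a1 and Syt16, at Mpp6, whose promoter is shown above, and at 2 sites without a protein-coding record. Their bridges spanned 340 to 2200 kb with scores of 3.25 to 5.12. Mpp6 (chr6:50100001-50125000) had loops of 600 kb (score 4.37) and 430 kb (score 3.27) and a bridge of 1030 kb (score 4.61).

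Some 2-sided anchors lay at the edge of a cluster of related genes. The largest difference in gene number was at chr11:100150001-100175000, with 51 genes in the loop of 700 kb toward lower coordinates (score 3.66) and 5 in the loop of 125 kb toward higher coordinates (score 6.19). On the first side 36 were keratin or keratin-associated genes, which build the skin and hair, and 23 of these were keratin-associated. On the second all 5 were keratin genes (Krt9, Krt14, Krt16, Krt17 and Krt42), and no keratin-associated gene was among them. The site thus lay within the keratin cluster, with Krt13, Krt15 and Krt19 on the same side as the keratin-associated genes and Krt14, Krt16 and Krt17 on the other.

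On chromosome 13, 2-sided anchors stood at both ends of a run of pheromone receptor genes. The anchor chr13:22025001-22050000 held 5 replication-dependent histone genes, H2ac11, H2ac12, H2bc11, H2bc12 and H4c9, and 3 tRNA genes. Its loop of 175 kb (score 4.45) toward lower coordinates held 3 genes and its loop of 1410 kb (score 3.85) 39, of which 36 were Vmn1r genes. That long loop ended in another 2-sided anchor, chr13:23440001-23450000, which held 2 tRNA genes and from which a loop of 60 kb (score 3.88) went on over 2 genes. The abutting anchor chr13:23430001-23440000 held 6 tRNA genes and had loops of 1500 kb (score 3.62) over 47 genes and 160 kb (score 3.45) over 16, of which 13 were core histone genes. All 3 of the anchors with a tRNA gene were these. Of 58 replication-dependent histone genes, 18 (31.03%) lay in a flanking loop and 5 (8.62%) at an anchor, and the 5 are among the 18. This is 1 locus and not independent members.

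Of 1104 olfactory receptor genes, 28 (2.54%) lay in a flanking loop, against 3.75% of all protein-coding genes, and 21 of these lay at 1 locus. They made up all 21 genes in the loop of 740 kb (score 4.39) from chr2:36280001-36290000 toward higher coordinates. The loop of 270 kb (score 4.95) toward lower coordinates held 6 genes and none of that family, among them Lhx6, a homeobox gene of interneurons, and Ptgs1, a cyclooxygenase. At chr6:42200001-42210000 the loops held 7 and 15 genes, with 1 and 4 olfactory receptor genes and 1 and 4 bitter taste receptor genes (Tas2r). At chr16:36470001-36480000, 11 of 12 genes toward lower coordinates belonged to the stefin group of protease inhibitors by their symbols (Stfa, Csta and Cstdc), and none of the 8 on the other side did.

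Other anchors with a large difference in gene number had all of it on the longer side. At chr1:78200001-78225000, which held the predicted gene Gm2102, the longest loop toward lower coordinates (3325 kb) held 30 genes, among them Ihh, a hedgehog ligand, and Pax3, a neural crest factor, and the loop of 200 kb on the other side none. At Fgf14 (chr14:124525001-124550000) the loop of 5100 kb (score 6.41) held 22 genes, among them Zic2 and Zic5, zinc finger genes of the neural plate. The loop of 190 kb (score 5.47) held no whole gene, but part of Fgf14 lay in it. The anchor at Fubp1, a regulator of Myc, and Nexn, an actin-binding protein gene (chr3:152225001-152250000), had the longest loop of all 2-sided anchors (5800 kb, score 4.11, 24 genes) and on its other side a loop of 120 kb (score 3.71) with 1 gene. Over all 126 anchors, 62 (49.2%) had no protein-coding gene wholly inside the longest loop of at least 1 side, and 13 had none on either. Such a side is not always free of genes, since a gene that reached into or past an anchor was not counted. Palld, for example, covers both loops of its anchor. The totals were 534 genes toward lower and 401 toward higher coordinates, with medians of 2 and 1. Of the 274 loops, 80 (29.2%, 24.1 to 34.8%) held no gene, close to the 32.3% of the other loops.

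**Figure D5:**
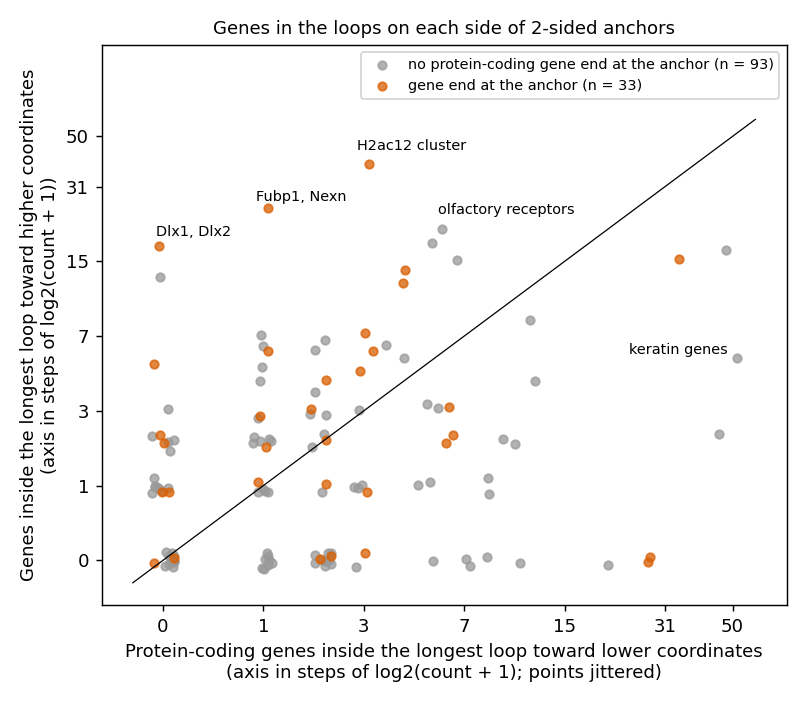
Number of protein-coding genes wholly inside the longest loop toward higher (y axis) and lower (x axis) coordinates of each of the 126 2-sided anchors. Both axes are in steps of log2(count + 1), and points are shifted slightly at random so that equal counts show. Orange points have a gene end at the anchor (33). Points far from the line of equal counts include the keratin genes (51 and 5), the H2ac12 cluster (3 and 39) and Dlx1 and Dlx2 (0 and 17).

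Sites with the most loops often lay in chains, in which a loop ran from one 2-sided anchor to the next. Of the 126 anchors, 17 (13.5%, 8.60 to 20.5%) had a far anchor that was 2-sided too. The only chain of 3 lay at the amylase genes on chromosome 3, from chr3:113100001-113150000 at Amy2b, with 3 loops toward lower and 2 toward higher coordinates, over 80 kb (score 6.06) to chr3:113200001-113225000 and then over 425 kb (score 17.9) to chr3:113625001-113650000 at Rnpc3, a minor spliceosome gene. The last loop held the 6 genes Amy2a1 to Amy2a5 and Amy1, which encode starch-digesting enzymes and are near-identical copies in which reads are hard to place, so the positions of these loops are uncertain. From Rnpc3 the longest loop, 2250 kb with a score of 6.63, ran on to Dph5.

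Among 7 further pairs, the strongest link was a loop of 500 kb with a score of 9.75 from chr14:25810001-25820000 to chr14:26310001-26320000. The first of these anchors held no gene, and the longest of its loops (620 kb) spanned 13 genes that include copies of Tmem254, Cphx and Duxbl, a homeobox family of the early embryo, to which the same doubt about read placement applies. At chr2:100825001-100850000, 3 loops of 430, 540 and 2400 kb with scores of 9.47, 4.30 and 6.73 ran toward lower coordinates and 1 of 250 kb (score 3.82) toward higher coordinates, and neither side held a gene. The loop of 540 kb ended in another 2-sided anchor. At chr4:87350001-87380000, 1 loop of 390 kb (score 4.003) ran over Slc24a2 and 3 loops of 410, 640 and 1175 kb (scores 3.27, 3.44 and 3.79) ran the other way over Mllt3, a transcription elongation factor gene, Focad, Hacd4 and Ifnb1, with no crossing loop.

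The other 2 anchors with the shortest longer side were chr8:61690001-61700000, inside Palld, an actin-bundling protein gene (160 and 175 kb, scores 4.29 and 4.21), and chr2:24570001-24580000 (170 and 180 kb, scores 3.99 and 4.03), whose loop toward lower coordinates enclosed Pax8, a thyroid and kidney factor. These loops were compact on both sides, and both sites were crossed. Near the amylase genes, chr3:113675001-113700000 had long loops on both sides (925 kb, score 5.39, and 1350 kb, score 4.86) and 4 crossing loops. Gm46900, a predicted gene, had an end in chr5:5750001-5775000, with loops of 260 kb (score 5.22) over 6 genes and 2225 kb (score 5.86) to Steap4, a metalloreductase gene, over 2 genes and no crossing loop. Gm12880, also predicted, surrounded chr4:121550001-121575000, with 1 loop toward lower and 2 toward higher coordinates, the longest of 1200 kb, and 4 crossing loops. Of the crossing loops, that of 670 kb had an outlying score of 276.6.

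The highest score on the weaker side, and the highest sum of scores, lay at chr7:3640001-3650000, with 15.8 toward lower (210 kb) and 40.8 toward higher coordinates (490 kb). It held an end of Prpf31, a splicing factor gene, and of Cnot3, a subunit of the deadenylase complex, and was chosen after its values were seen. Among the other anchors with a gene end were Gabpa, an ETS transcription factor gene, with Atp5j, a subunit of ATP synthase, and Jam2, a junction protein gene, at chr16:84825001-84850000 (110 and 2575 kb, not crossed). Lin28b, an RNA-binding inhibitor of let-7 maturation, and Bves met at chr10:45370001-45400000 (1070 and 425 kb, not crossed). Hes1, a repressor in Notch signalling, lay at chr16:30050001-30080000 (325 and 140 kb, crossed by 3 loops), and Igf1r, a growth factor receptor gene, at chr7:67950001-67975000 (170 and 350 kb, crossed by 2). These were singled out after their values were seen.

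Of the 47 gene records with an end at a 2-sided anchor, 16 lay wholly inside it, 16 extended toward lower and 15 toward higher coordinates. The start sites of 23 genes lay in 15 anchors, 11 of them read toward higher and 12 toward lower coordinates. Neither placement nor direction of reading was thus one-sided. At the far ends of the flanking loops, a gene end lay at 63 of 252 outermost far anchors (25%, 20.06 to 30.7%) and at both far anchors of 11 sites. These far anchors are intervals of single loops and were not merged. Their share is therefore not on an equal footing with that of the 2-sided anchors, which can be wider. By chromosome, the share of merged anchors that were 2-sided was highest on chromosome 16 (10 of 367, 2.72%) and on chromosome 2 (19 anchors, 2.48%). Chromosome 15 had none of 365.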

How the data were processed

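Both Micro-C samples, replicates 1 and 2 of V6.5 cells with control siRNA, are represented by 1 deposited loop list. Juicer 1.5.6 and mm10 are named per the submitters' processing notes. The loop caller, its thresholds, any pooling of the samples and the normalization of the maps were not given in the sources used here. Since the file has no header, the meaning of its columns was inferred. The deposited peak score and regional score are scores of the authors' caller, and the deposited signal is the value of the peak pixel on an unstated scale; both were used only within this list.

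Anchors on chromosomes 1 to 19 were merged where they shared at least 1 bp. The longest loop of each side gave the span and the genes, the highest score of each side its score, and a loop crossed a site when both its anchors lay wholly outside it on opposite sides. Genes came from RefSeq GRCm38.p6 (20665 protein-coding records, 16457 of them with a promoter entry); start sites of chromosome 18 were not used here, which leaves 123 anchors for start sites. Shares carry Wilson 95% intervals and medians order-statistic 95% intervals. There was 1 group without values per sample, so no test was made. The merging was tested on simulated data, where all 40 planted shared sites and all 100 shared or abutting ones were found. Python 3.11.15, pandas 2.3.3, numpy 2.4.6, scipy 1.17.1 and matplotlib 3.10.9 were used.

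The anchors named are the 8 with the most loops, the 10 with the highest score on the weaker side (no loop above 20), those with a gene of the lists, the 5 with the largest difference in gene number and the 5 with most genes on both sides, the 3 with the longest shorter side and the 3 with the shortest longer side, and the chains; 2 of these anchors are not reported here. Others are said in the text to be chosen after their values were seen, and this also holds for Mpp6, Gm33299, Fubp1 and Nexn, Runx2 apart from its number of loops, and the genes given as examples. The members and the gene lists were chosen with earlier results of these data known. Other merging rules, pixel sizes, score limits, gene rules and crossing rules were tried.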

Additional observations from a re-analysis of the deposited data

How the results depend on the processing

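The number of 2-sided anchors depended on what counts as a shared anchor. With abutting anchors merged there were 268 (3.47% of merged anchors), of which 61.2% were crossed, 54.5% had a longer side at least 2 times the shorter and 22.8% had a 2-sided far anchor. With anchors up to 5 kb apart merged there were 337 (4.47%), with a gene end at 34.7%, crossing at 58.8%, a ratio of at least 2 at 52.8% and a 2-sided far anchor at 24.9%. With 5 and 10 kb pixels only there were 71 (0.935%), with 15.5%, 62.0%, 54.9% and 8.45% for the same quantities. With scores at or above the median of the pixel size there were 42 (0.946%), with a median span of 437.5 kb toward higher coordinates, a ratio of at least 2 at 73.8% and a 2-sided far anchor at 7.14%. The share with a gene end was 36.5% with anchors widened by 5 kb, 53.2% with any overlap of a gene record and 12.2% with start sites only. Crossing fell to 7.94% where the crossing loop had to join both far anchors. With 1 mismatch allowed, chosen after seeing the data, the CTCF core was in 39.2% of promoter entries at 2-sided anchors (27.0 to 52.9%) and 30.8% of all. Of 57 values under alternatives, the other 30 lay within the interval of the reported value, or within 1.5 times a count; these include chromosome X, the 10 highest scores left out, the shortest loop of a side, and crossing at least 25 kb away, an alternative chosen after seeing the data.

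No paired analysis was possible because replicates 1 and 2 have no columns of their own; for the same reason neither replicate was left out. The CTCF core with 1 mismatch, planned for the anchor sequence, was not run there, since no genome of the build was used here. Read depth is unknown. A site without a crossing loop is a site without a called one. The cause of the changes with merging was not tested.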
